A study of Mus musculus with 10 samples.

Results

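The genes described here are 7 DOCK exchange factors (Dock1, Dock5, Dock6, Dock8, Dock9, Dock10 and Dock11) and the atypical GTPase gene Rnd3, 8 of the 24368 genes in the table. They were picked by name with the difference between genotypes in these libraries already in view, so that difference is described for them and not tested. Their relatives Dock2, Dock3 and Dock4 were set beside them. RNA-seq was done on total RNA of mouse proximal jejunum, the upper fat-absorbing part of the small intestine. One group of 5 libraries was labelled HuR cKO, from mice with a conditional deletion of HuR in the intestinal epithelium, and the other group of 5 came from wild-type (WT) littermates. HuR, encoded by Elavl1, is an RNA-binding protein that attaches to U-rich and AU-rich parts of transcripts. The sources used here do not name the Cre line that drives the deletion, the deleted exons or the ages. Cells outside the epithelium keep HuR in such a model, and their RNA is part of every library.

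DOCK proteins switch on the GTPases Rac and Cdc42, which direct the building of actin structures such as lamellipodia, filopodia and phagocytic cups. They exchange GDP for GTP through a domain of their own kind and not through the Dbl domain of most other exchange factors. Dock1, Dock2 and Dock5 act on Rac together with ELMO partners, Dock3 and Dock4 also act on Rac, Dock6 and Dock8 act on Rac or Cdc42, and Dock9, Dock10 and Dock11 act on Cdc42. Rnd3, also called RhoE, is held in the GTP form because it does not hydrolyse GTP. It works against RhoA by binding p190RhoGAP, the product of Arhgap35, and by inhibiting the kinase ROCK1.

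Recovered reads ran from 16063987 (cKO 1) to 18927440 (cKO 5) per library. All 8 markers of epithelium were measured, and their sums ran from 437986 to 545226 normalised reads in WT and from 245720 (cKO 3) to 645035 (cKO 4) in cKO, with cKO 1, cKO 3 and cKO 5 below the WT range and cKO 4 above it. Elavl1, the deleted gene, stood at 630.5 to 709 in WT and 556 to 725 in cKO, and since the deleted exons are not named, this total over all exons cannot check the labels. The libraries cKO 3 and cKO 5 stood apart in clock genes, with the clock gene Per2 at 12.7 and 16.03 normalised reads against 342 to 749 in the other 8 libraries, and values are given without them where they bear on a result. Xist, which is read from the inactive X of females, was at 0 in 9 libraries and at 2.40 in cKO 5. The Y-linked gene Ddx3y was at 497 to 893 in all libraries, so the X-linked Dock11 was compared among libraries that are alike in these genes. No label links a library to a litter.

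Dock11, a Cdc42 exchange factor also known as zizimin2, lies on the plus strand of chromosome X (35888832 to 36076562 in mm10, ENSMUSG00000031093). It stood at 324, 270.4, 269, 312 and 262 normalised reads in WT 1, 3, 4, 5 and 6, and at 1069, 812, 1651, 967 and 1227 in cKO 1, 2, 3, 4 and 5. The groups did not overlap: the lowest cKO library was above the highest WT library by a wide gap, and cKO 3 and cKO 5 were the highest of all. The mean was 288 ± 28.5 in WT and 1145 ± 321 in cKO (SD, 5 libraries each), a log2 fold change of 1.95 ± 0.18 SE on the log2(value + 1) scale. Without cKO 3 and cKO 5 it was 1.72. Between 242 and 2083 whole reads stood behind each value. The spread within WT was small, with a coefficient of variation of 9.91% against 28.0% in cKO.

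Rnd3 lies on the minus strand of chromosome 2 (51130438 to 51149111 in mm10, ENSMUSG00000017144). Its values were 206, 110.4, 135, 164 and 189 normalised reads in WT 1, 3, 4, 5 and 6, and 341, 394, 583, 349 and 549.9 in cKO 1, 2, 3, 4 and 5. No cKO value reached down to the WT range, and cKO 3 and cKO 5 were again the highest. The mean was 161 ± 38.8 in WT and 443 ± 115 in cKO (SD, 5 libraries each), a log2 fold change of 1.45 ± 0.21 SE. Without cKO 3 and cKO 5 it was 1.19.

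Other cell type markers moved beside these values. The summed fibroblast markers (9 of 9 measured, none at 0) ran from 5422 to 6956 normalised reads in WT and from 7025 to 11009 in cKO, with all 5 cKO libraries above the highest WT library. The summed endothelial markers (10 of 10 measured, none at 0) ran from 444 to 609 in WT and from 441 to 1076 in cKO, with cKO 2, cKO 3 and cKO 5 above the WT range. The library with the highest Dock11 and Rnd3, cKO 3, also had the lowest epithelial sum and the highest fibroblast and endothelial sums. It was highest too in the summed markers of T and innate lymphoid cells (17841), B and plasma cells (42208) and myeloid and mast cells (4476). The pan-leukocyte sum was highest in WT 5 (4175, against 3415 in cKO 3). The library cKO 5, second in Dock11 and in Rnd3, was also second in the endothelial sum (916, after 1076 in cKO 3). It had the lowest fibroblast sum of the cKO libraries (7025). The part of these cell types in the levels of Dock11 and Rnd3 was not tested. In whole tissue, more cells of a type and more RNA per cell cannot be told apart.

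The stretch around the start site of both genes is shown because these members had the highest fold changes, and it was searched for 4 motifs on both strands: the CArG box bound by SRF, GGAATG bound by TEAD factors, TGANTCA bound by AP-1, and CACGTG, an E-box. Motif matches are in capitals, each sequence runs from 250 bases before to 50 bases after the start site, and the sequences are RefSeq's for GRCm38.p6, the assembly of mm10.
Rnd3, chr2:51149062-51149361, minus strand: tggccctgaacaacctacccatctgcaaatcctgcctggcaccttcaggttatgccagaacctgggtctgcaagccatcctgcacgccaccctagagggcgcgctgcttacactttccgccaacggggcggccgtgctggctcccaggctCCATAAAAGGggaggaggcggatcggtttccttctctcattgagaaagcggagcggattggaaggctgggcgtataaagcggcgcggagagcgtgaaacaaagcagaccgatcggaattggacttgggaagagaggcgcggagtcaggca
Dock11, chrX:35888582-35888881, plus strand: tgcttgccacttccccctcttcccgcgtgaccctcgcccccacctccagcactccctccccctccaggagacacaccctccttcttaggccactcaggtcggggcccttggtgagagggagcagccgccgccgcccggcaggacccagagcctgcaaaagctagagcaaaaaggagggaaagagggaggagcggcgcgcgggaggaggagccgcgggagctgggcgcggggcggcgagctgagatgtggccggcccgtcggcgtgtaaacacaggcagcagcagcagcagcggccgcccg
The Rnd3 window held 1 CArG box, which starts 100 bases before the start site; 1.63% of the 32851 windows searched held one. The Dock11 window, with 70.3% G and C, held none of the 4 motifs. Of the 7 members with an entry, Dock1 and Dock6 each held 1 GGAATG (14.7% of all windows do), and 1 of the 3 Dock9 windows held 1 CACGTG (7.15% of all windows do). The Dock8 window and both Dock10 windows held none. A match is a run of letters and no measured binding.

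HuR binds AU-rich and U-rich RNA, so the longest annotated 3′ untranslated region (UTR) of each gene in GENCODE M21, on the same assembly, was searched for AUUUA and for UUUUUU, with overlapping copies counted. For a view of such sites, the 28-base window with the most AUUUA is shown for Dock11 and Rnd3, the members with the highest fold changes, with AUUUA in capitals. Where windows tied, the one with the most U was taken, so the U content of these windows comes from the picking.
Dock11, chrX:36076282-36076309, plus strand: uguuagcAUUUAgagauuugauaugugu
Rnd3, chr2:51133154-51133181, minus strand: cugauuuuuAUUUAaauugguguucagu
Dock11 had 2 AUUUA in a short 3′ UTR of 344 bases, or 5.81 per kb, a density above that of 96.2% of 12410 tested genes, whose median was 1.36 per kb. Rnd3 had 2 in 2122 bases, or 0.943 per kb, above 40.1% of genes. Dock1 had the densest UUUUUU of the members, 14 in 1097 bases or 12.8 per kb (above 96.3% of genes). Dock8 had 2 AUUUA in 1385 bases and no UUUUUU. Dock11 also had 2 UUUUUU, or 5.81 per kb (above 85.5% of genes), and Rnd3 had 2, or 0.943 per kb (above 48.6%). In Dock11 both densities rest on 2 copies in a short UTR. For AUUUA, Dock1 was above 39.3% of genes and Dock8 above 51.8%. A link between these densities and the fold changes was not tested. Overlap of these motifs with HuR binding was not measured.

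Dock8, an exchange factor best known from lymphocytes and dendritic cells, lies on the plus strand of chromosome 19 (24999529 to 25202432, ENSMUSG00000052085) and had the lowest fold change of the members. It stood at 889.8, 689.5, 833, 1126 and 711 normalised reads in WT 1, 3, 4, 5 and 6, and at 263, 618, 445, 512 and 686 in cKO 1, 2, 3, 4 and 5. The groups did not overlap, but only just: the highest cKO value, in cKO 5, lay next to the lowest WT value, in WT 3. The mean was 850.05 ± 175 in WT and 505 ± 164 in cKO (SD, 5 libraries each), a log2 fold change of -0.80 ± 0.23 SE. It was -0.58 without cKO 1, the lowest library, and -0.94 without cKO 3 and cKO 5. The summed pan-leukocyte markers (5 of 5 measured, none at 0) ran from 2894 to 4175 in WT and from 2018 to 3415 in cKO, with cKO 1, cKO 2 and cKO 4 below the WT range. Of these 5 markers 4 had a negative and 1 a positive log2 fold change (median -0.17). Coro1a differed most, with a mean of 1237 in WT and 833 in cKO, and Cd53 was higher in cKO (332 and 423). The summed myeloid and mast cell markers (10 of 11 measured) overlapped, from 2291 to 4175 in WT and from 2472 to 4476 in cKO. The summed T and innate lymphoid markers (12 of 12 measured, none at 0) ran from 10470.1 to 11602 in WT and from 9802 to 17841 in cKO, and 4 cKO libraries were above the WT range. Most of that sum was the granzyme transcripts Gzma and Gzmb; without them the sum ran from 2010.1 to 2683 in WT and from 1313 to 2772 in cKO, with only cKO 1 above the WT range and cKO 4 below it. Of the 12 markers 6 had a positive and 6 a negative log2 fold change (median -0.03). The part of these cells in the level of Dock8 was not tested.

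**Figure D1:**
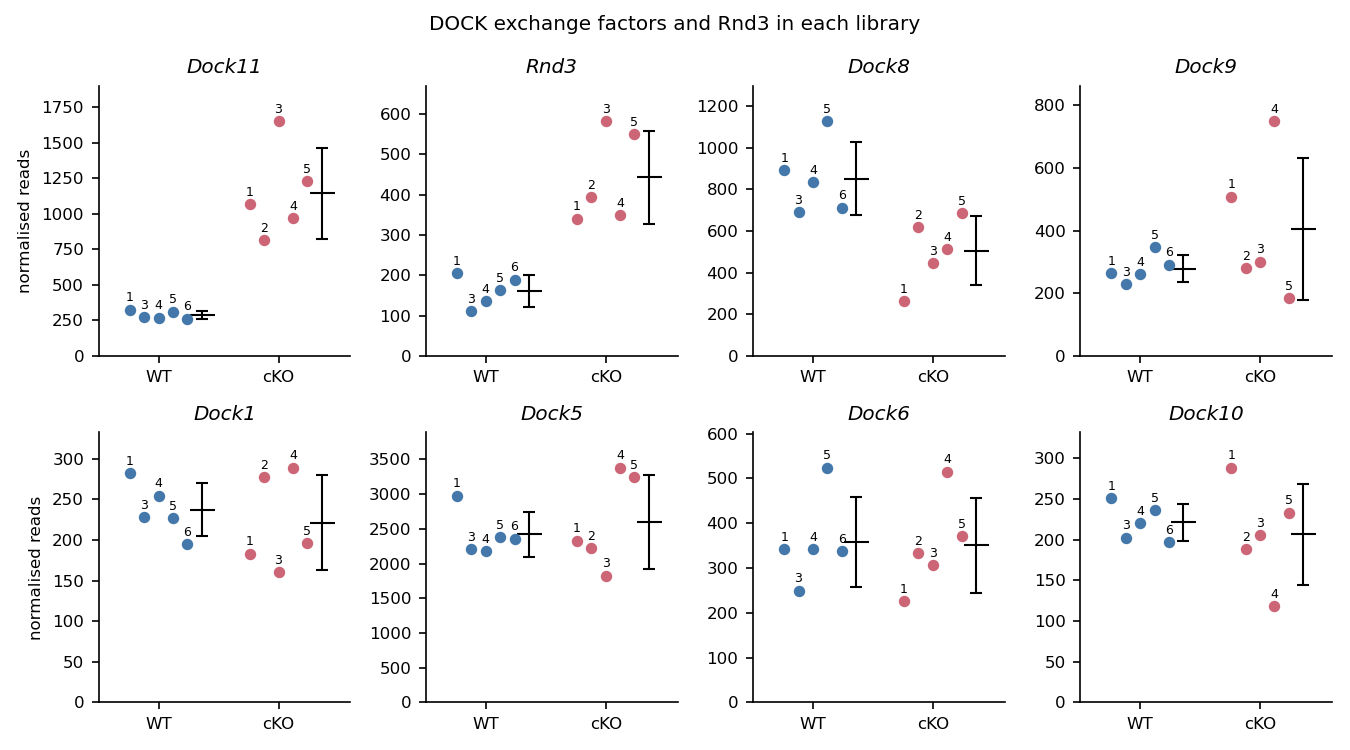
Normalised reads (y axis, from 0) of the 8 members in each library, with the replicate number above each point and the mean ± SD of 5 libraries at the right of each group. Dock11 and Rnd3 of the cKO libraries lie above every WT library (812 or more against 324 or less for Dock11), Dock8 of the cKO libraries (263 to 686) lies below every WT library (689.5 or more), and the other 5 members overlap.

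Dock9, also known as zizimin1, differed more among the cKO libraries than any other member. It was at 265, 229.8, 261, 347 and 291 in WT 1, 3, 4, 5 and 6, and at 509, 279, 301, 749 and 184 in cKO 1, 2, 3, 4 and 5. The libraries cKO 1 and cKO 4 were above all WT libraries and cKO 5 was below them. The coefficient of variation was 15.8% in WT and 55.9% in cKO, and the highest cKO library was 4.06 times the lowest. The log2 fold change was 0.37 ± 0.30 SE, 0.11 without cKO 4 and 0.78 without cKO 3 and cKO 5.

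Dock10, or zizimin3, a Cdc42 exchange factor known from lymphocytes, had WT values of 252, 203, 220.2, 236 and 197 in WT 1, 3, 4, 5 and 6. Its cKO values were 289, 188, 205, 118 and 233 in cKO 1, 2, 3, 4 and 5. The highest library was cKO 1 and the lowest cKO 4, so the cKO range took in the whole WT range. The log2 fold change was -0.15 ± 0.21 SE, and 0.03 without cKO 4. So of the 3 Cdc42 exchange factors with close kinship, only Dock11 had groups that did not overlap; whether its difference exceeds that of Dock9 or Dock10 was not tested.

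Dock1, the founding member that works with ELMO in engulfment and migration, ranged from 195 to 282 in WT and from 160.1 to 289 in cKO (log2 fold change -0.13 ± 0.19 SE). Dock5, its close relative, ranged from 2175 to 2979 in WT and from 1826 to 3381 in cKO (0.07 ± 0.19 SE). Dock6, which acts on Rac and Cdc42, ranged from 249 to 524 in WT and from 226 to 515 in cKO (-0.04 ± 0.22 SE). All of these overlapped between groups, and the cKO range went past the WT range at both ends for Dock1 and Dock5. The 95% intervals of the log2 fold change were -0.54 to 0.28 for Dock1, -0.32 to 0.47 for Dock5 and -0.52 to 0.43 for Dock6, so differences inside them are not excluded. In edgeR fits on recovered reads, library totals in place of TMM scaling turned the log2 fold change of Dock6 from -0.03 to 0.08 and that of Dock10 from -0.09 to 0.01, and moved the median of all genes from 0.04 to 0.14. Leaving out WT 5 or cKO 1 in the limma fit turned the sign of Dock6 too (both 0.10).

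Over the 8 members, 2 (Dock11 and Rnd3) were among the genes higher at a limma adjusted p under 0.05 and none was among the lower ones, beside 0.441% of the 14062 genes tested that were higher, 0.882% that were lower and 1.32% in either direction. The groups did not overlap for 3 members, 2 higher and 1 lower, beside 4.87% of all genes tested (1.86% higher and 3.01% lower). Since the members were picked from this contrast, nothing follows from these shares. The median log2 fold change was 0.01 over the members and 0.01 over all genes tested. All 8 had means of 10 normalised reads or more and were tested; of the relatives, Dock3 was below that mean.

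The authors' deposited table gives log2 fold changes of 1.89 for Dock11, 1.37 for Rnd3, -0.65 for Dock8, 0.49 for Dock9, 0.12 for Dock5 and Dock6, -0.13 for Dock10 and -0.16 for Dock1. Its sign for Dock6 is opposite to that of the limma fit. The libraries behind the authors' values were not checked here.

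Levels of different genes were compared as normalised reads per kb of exonic length. In WT, Dock5 was the most abundant of the 10 DOCK transcripts described, at 199 ± 26.8 per kb, followed by Dock8 at 109 ± 22.5 and Dock6 at 40.9 ± 11.4 (SD, n = 5). The ranges of Dock5 and Dock8 did not overlap, nor did those of Dock8 and Dock6. Below them came Rnd3 at 36.3 ± 8.75, Dock11 at 31.1 ± 3.08, Dock1 at 25.4 ± 3.52 and Dock9 at 21.1 ± 3.32 per kb. From Dock6 down to Dock9 each gene overlapped in range with the next, and Dock9 did not overlap with Dock10. Dock10 at 12.1 ± 1.25 and Dock2, the exchange factor of blood cells, at 10.3 ± 1.88 overlapped with each other. Dock4 at 4.14 ± 1.03 and the brain-enriched Dock3 at 0.331 ± 0.261 were lowest, and neither overlapped with the gene above it.

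In cKO the order per kb was Dock5 at 214 ± 55.7, Dock11 at 124 ± 34.7, Rnd3 at 100 ± 25.9, Dock8 at 64.6 ± 21.0 and Dock6 at 39.9 ± 12.1 (SD, n = 5). In that order each of these 5 genes overlapped in range with the next. Dock9 (30.5 ± 17.1), Dock1 (23.7 ± 6.23) and Dock10 (11.3 ± 3.42) followed. Among these DOCK genes Dock11 thus went from the fourth in WT to the second in cKO.

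As a share of the summed transcripts per kb of these 10 DOCK genes, Dock11 made up 6.58% to 7.43% in the 5 WT libraries, and 25.8%, 19.1%, 36.7%, 17.1% and 22.4% in cKO 1, 2, 3, 4 and 5. The share of Dock8 was 23.9% ± 2.63 in WT and 12.4% ± 3.74 in cKO, and that of Dock5 44.0% ± 4.02 and 40.7% ± 5.99 (SD, n = 5 each). Shares sum to a whole, so a higher share of 1 gene lowers the others. The sum of the 10 genes was 453 ± 56.3 normalised reads per kb in WT and 520 ± 76.3 in cKO. Without Dock11 it was 422 ± 53.4 and 396 ± 84.4, and the sum of the other 9 overlapped between groups.

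**Figure D2:**
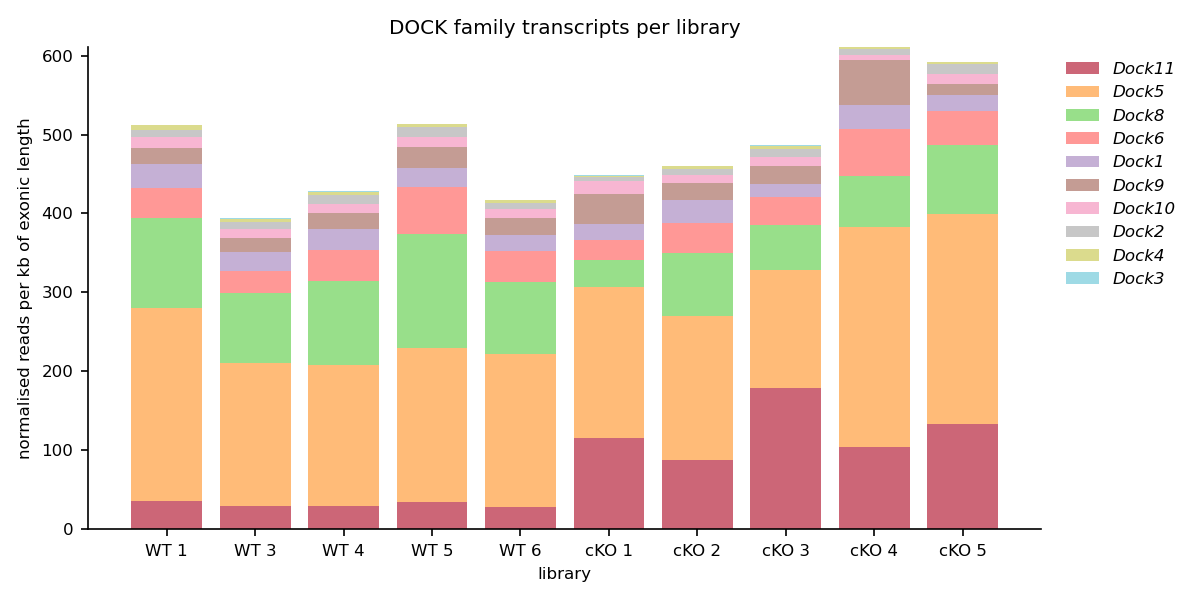
Normalised reads per kb of exonic length (y axis, from 0) of the 10 DOCK genes described, stacked for each of the 10 libraries (x axis). The Dock11 segment, at the foot of each bar, runs from 28.4 to 35.1 per kb in WT and from 87.9 to 179 in cKO, while Dock5 is the largest segment in all libraries but cKO 3.

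After the group means were taken out, Dock11 and Rnd3 varied together over the 10 libraries (Pearson r = 0.64), as did Dock6 and Dock8 (r = 0.73), while Dock1 and Dock11 varied in opposite ways (r = -0.62). These are 3 of the 28 pairs of members and are given as a description, since the libraries share their scaling and the high values of cKO 3 and cKO 5. Of 8573 other genes with a mean of at least 100 normalised reads, those most like Dock11 in this way were Itpkb (r = 0.91), Trmt6 (r = 0.89) and Ifit2 (r = 0.89). Those most like Rnd3 were Pigm (r = 0.97), Ylpm1 (r = 0.94) and Hnrnpr (r = 0.93). By rank (Spearman rho) the values in the same order were 0.77, 0.82 and 0.64 for Dock11, and 0.96, 0.95 and 0.89 for Rnd3. They were picked as the highest of 8573 genes over only 10 libraries, so high values arise by the picking alone, and they were not tested. None of these 6 genes passed the limma test between genotypes (adjusted p from 0.220 for Trmt6 to 0.826 for Ylpm1).

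The rest of the pathway was read from lists made by family, not by values: 191 genes, of which 179 were tested. By limma, Arhgap35 and Arhgap10 rose and none fell, a share of 1.12% beside 1.32% of all genes tested, which is near the background. Their median log2 fold change was -0.03, beside 0.01 over all genes. At an unadjusted limma p under 0.05 there were 27 of the 179, with 17 higher and 10 lower. The edgeR test on recovered reads called the same 2 genes. DESeq2 called 9, of which 8 were higher (Arhgap10, Arhgap29, Arhgap35, Cdc42ep1, Cit, Net1, Plxnb1 and Rhoj) and 1 was lower (Rtkn). The authors' deposited adjusted p was under 0.05 for Arhgap35 (0.000109), Cit (0.0127) and Plxnb1 (0.0461), all higher. It was also under 0.05 for Rtkn (0.00833) and Arhgap31 (0.0384), both lower, and was 0.0709 for Arhgap10.

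Arhgap35 encodes p190RhoGAP, the partner through which Rnd3 acts on RhoA (minus strand of chromosome 7, 16493719 to 16614993, ENSMUSG00000058230). It was at 154, 187, 159, 208 and 175 normalised reads in WT 1, 3, 4, 5 and 6, and at 245, 366, 331, 339 and 302 in cKO 1, 2, 3, 4 and 5. All 5 cKO libraries were above all WT libraries. The rise was 1.78-fold (log2 fold change 0.83 ± 0.16 SE, limma adjusted p = 0.0254). The call was lost without WT 1 (limma adjusted p = 0.0594), WT 3 (0.0570), WT 4 (0.0779), WT 6 (0.0643) or cKO 3 (0.0620), and without cKO 3 and cKO 5 together (0.102), with log2 fold changes of 0.79, 0.85, 0.80, 0.83, 0.81 and 0.83.

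Arhgap10, a member of the GRAF family with a membrane-bending BAR domain, lies on the minus strand of chromosome 8 (77250366 to 77517953, ENSMUSG00000037148). Its values were 79.8, 71.9, 95.5, 76.8 and 84.5 in WT 1, 3, 4, 5 and 6, and 177, 192, 126, 177 and 107 in cKO 1, 2, 3, 4 and 5. No cKO library fell within the WT range. The rise was 1.86-fold (log2 fold change 0.89 ± 0.20 SE, limma adjusted p = 0.0400). The call was lost without any 1 of WT 1, 3, 4, 5, 6 or cKO 1, 2, 3 (limma adjusted p from 0.0647 without cKO 1 or cKO 3 to 0.112 without WT 3) and stood without cKO 3 and cKO 5 together (limma adjusted p = 0.0208). Summed fibroblast markers were also higher in all 5 cKO libraries than in any WT library. Within cKO their sum was highest in cKO 3 (11009) and next in cKO 2 (8854), and both GAP genes were highest in cKO 2. The part of fibroblasts in the level of either GAP gene was not tested.

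Among the relatives, neither of the 2 tested passed limma (0 at an unadjusted p under 0.05). The log2 fold changes were -0.53 ± 0.26 SE for Dock4 and -0.26 ± 0.22 for Dock2, with limma adjusted p of 0.281 and 0.546. Dock3 was at 0 to 9.74 normalised reads in WT and 0 to 9.51 in cKO. All 3 overlapped between groups.

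None of 9 tested partners and adaptors passed limma (1 at an unadjusted p under 0.05, lower). Elmo2, an ELMO scaffold for Dock1, Dock2 and Dock5, had a mean of 776 ± 86.4 in the 5 WT and of 549 ± 120 in the 5 cKO libraries (SD). The difference of -0.52 ± 0.17 SE on the log2 scale had a limma adjusted p of 0.127. The relatives Elmo1 (0.06 ± 0.22 SE) and Elmo3 (-0.14 ± 0.17 SE) had limma adjusted p of 0.915 and 0.708. Bcar1, the adaptor p130Cas, gave -0.44 ± 0.23 SE (limma adjusted p = 0.308).

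None of 8 Rac and Cdc42 subfamily GTPases passed limma (2 at an unadjusted p under 0.05, 1 in each direction). The 2 with the smallest p were Rhoj, a GTPase of endothelial cells (log2 fold change 0.63 ± 0.19 SE, limma adjusted p = 0.110), and Rhog, which recruits ELMO and DOCK (-0.54 ± 0.20 SE, limma adjusted p = 0.169). The endothelial sums given above were higher in 3 cKO libraries, and their part in the value of Rhoj was not tested. Of the relatives of Rnd3, Rnd2 gave -0.15 ± 0.22 SE (limma adjusted p = 0.739), and Rnd1 stayed between 2.17 and 15.99 normalised reads, too low to be tested.

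**Figure D3:**
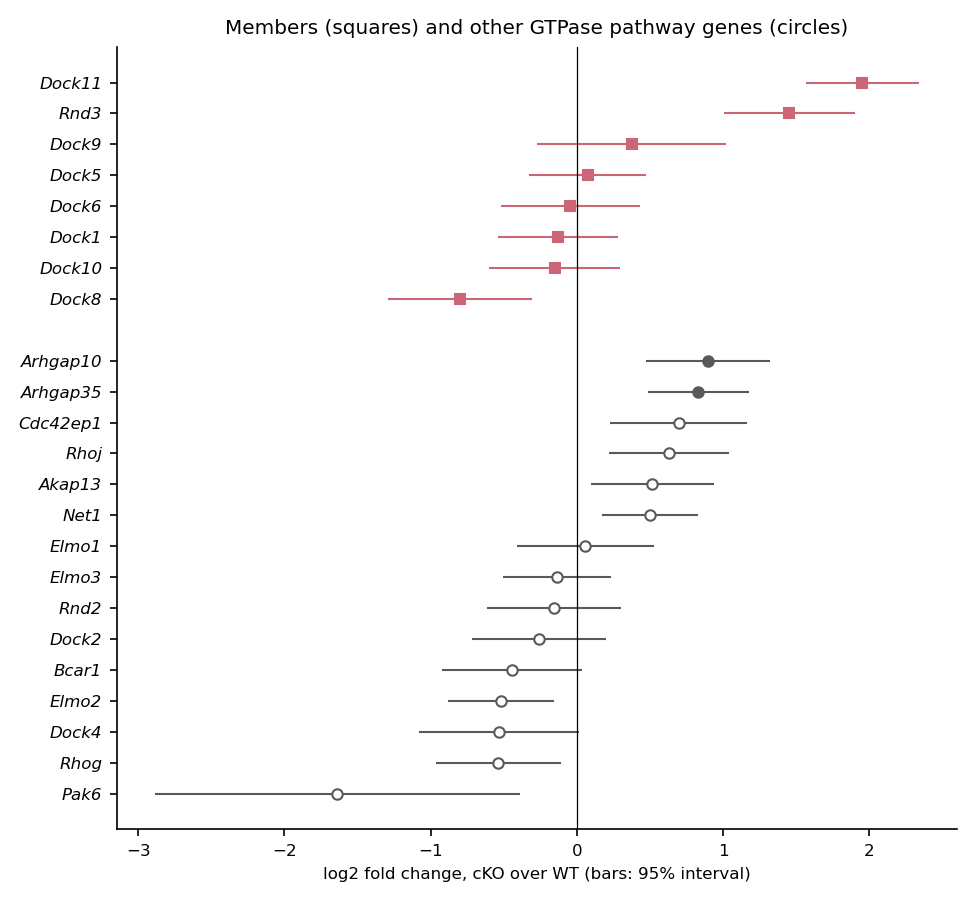
Log2 fold change of cKO over WT (x axis) with its 95% interval for the 8 members (squares, described and not tested) and other pathway genes named by rule (circles, filled where the limma adjusted p is under 0.05). The 2 filled circles are Arhgap10 at 0.89 and Arhgap35 at 0.83; in edgeR with library totals in place of TMM scaling the signs of Dock6, Dock10, Elmo3 and Rnd2 turned.

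None of 31 Rac and Cdc42 effectors passed limma (3 at an unadjusted p under 0.05, 1 higher and 2 lower). Cdc42ep1, a Cdc42 effector of the BORG family, had a log2 fold change of 0.70 ± 0.22 SE (limma adjusted p = 0.118). Pak6, a p21-activated kinase, had -1.64 ± 0.57 SE (limma adjusted p = 0.162), and its cKO values ran from 8.82 in cKO 5 to 126 in cKO 4, against 115 to 148 in WT. None of 54 Dbl family exchange factors passed limma (7 at an unadjusted p under 0.05, 6 higher and 1 lower). Net1, a RhoA exchange factor, had 0.50 ± 0.15 SE and Akap13, another, 0.52 ± 0.20 SE (limma adjusted p of 0.112 and 0.182). In the list of Rnd3 partners and RhoA effectors 1 of 16 passed (Arhgap35), and in that of GAPs and GDIs 1 of 50 (Arhgap10).

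**Figure D4:**
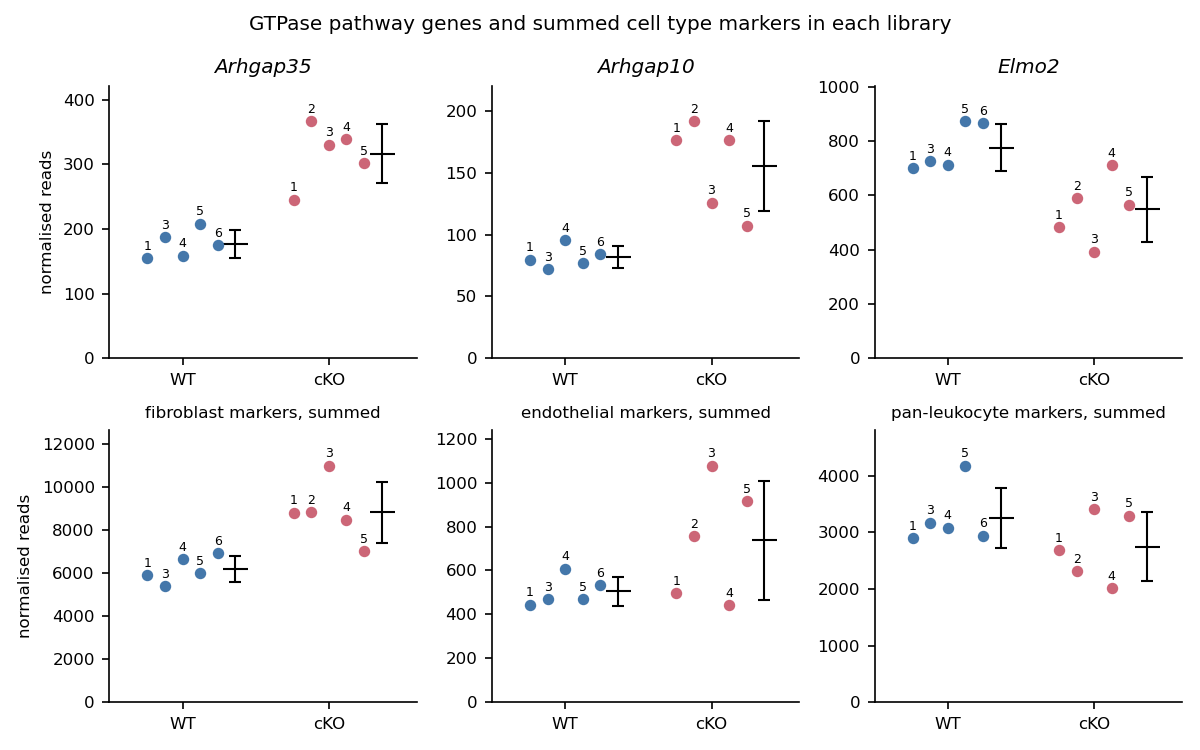
Normalised reads (y axis, from 0) of Arhgap35, Arhgap10 and Elmo2 and of 3 summed cell type marker lists in each library, with the replicate number above each point and the mean ± SD of 5 libraries at the right. Arhgap35, Arhgap10 and the fibroblast sum are higher in all 5 cKO libraries than in any WT library, and the endothelial sum is higher in cKO 2, cKO 3 and cKO 5.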

How the data were processed

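Per the submitters' processing notes, the tools used upstream were CASAVA, HISAT2 2.0.5, featureCounts 1.5.0-p3 and DESeq2 1.20.0, with the mm10 build. No source used here gives the strand setting or annotation release, so reads of overlapping genes may be shared; Angptl8, on the opposite strand inside Dock6, had a mean of 21.1 normalised reads. The authors deposited a normalised signal, in which every value was a whole multiple (within 0.001) of 1 step per library, so whole reads were recovered. The authors' deposited log2 fold change, p-value and adjusted p-value per gene served for comparison. A further 2 columns of per-sample values match no label and were not used.

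Genotype was tested by limma 3.58.1 (R 4.3.3, trend and robust) on log2(value + 1) of the 14062 genes whose mean was 10 or more, with Benjamini-Hochberg adjustment over them and a threshold of 0.05. Alternatives were edgeR 4.0.16 and DESeq2 1.42.0 on recovered reads, library totals, a pseudocount of 10, no filter, no trend, a block for the replicate number, and leaving out libraries. On simulated counts of 5 against 5 libraries (3 simulations, 200 of about 13907 genes changed) limma recovered 49.3% of 2-fold and 86% of 4-fold changes, with 4.03% false calls. The libraries come from 5 mice per genotype, per the series' design text, and within a group no pair matched within sampling noise (chi-square over degrees of freedom at least 19.8). The members, lists and motifs were chosen with earlier results of these data known. Some items the rule covers are not reported here. Genes named were the members, relatives in the DOCK, ELMO and Rnd families, up to 3 genes past the threshold per list or else the 2 with the smallest p, and the 3 genes most like Dock11 and Rnd3.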

Additional observations from a re-analysis of the deposited data

Results flagged for a closer look

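In 50 groups of 5 libraries (the members and named genes in each genotype), 3 held a library far from the others, where chance flags about 1 in 20 groups. Dock5 stood at 2979 normalised reads in WT 1, well above the other WT libraries. Rnd2 stood at 310.1 in cKO 2, well above the other cKO libraries. Cdc42ep1 stood at 30.9 in WT 5, well below the other WT libraries. In each case the gap to the nearest library was more than 0.71 of the range of the group.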

How the results depend on the processing

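The 8 members' log2 fold changes moved by less than the spread within groups in all 19 alternatives, from 1.72 to 2.14 for Dock11, 1.19 to 1.63 for Rnd3 and -0.95 to -0.58 for Dock8; signs changed for Dock1, Dock5, Dock6 and Dock10. Against 186 genes called, DESeq2 on recovered reads called 750, limma with no trend and no robust fit 42, limma without cKO 3 and cKO 5 56, and leaving out 1 library gave 30 (without WT 4) to 611 (without cKO 4). Against 2 pathway genes called, DESeq2 called 9, limma with no filter 1, with no trend and no robust fit 0, without cKO 3 and cKO 5 1 (Arhgap10), and leaving out 1 library gave 0 to 8; the causes were not tested. edgeR called 72 higher and 109 lower with TMM scaling and 86 and 74 with library totals (limma 62 and 124); Elmo3 and Rnd2 were -0.094 and -0.097 with the first and 0.014 and 0.012 with the second. Elmo1 ran from -0.12 (without cKO 4) to 0.22 (without cKO 1) with 1 library left out, and was -0.042 without WT 3. The replicate numbers 1, 3, 4 and 5 occur in both groups, but their deviations did not pair them (correlations 0.118, 0.0218, -0.105 and 0.0957), and not every library correlated best with its own number. In those 8 libraries the replicate block gave 134 calls and 0 pathway genes, and the fit without the block, added after the data were seen, gave 89 and 0. Counts under about 10 reads, as for Dock3 and Rnd1, are too few for a fold change.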

Other observations

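A few genes tied to Rnd3 and RhoA, named here after their values were seen, lay close to the threshold of the limma test. Plxnb1, the semaphorin receptor plexin-B1, averaged 24.7 ± 8.59 normalised reads over the WT libraries and 56.6 ± 12.8 over the cKO libraries (SD, n = 5 each; limma adjusted p = 0.0575). Cit, which encodes citron kinase of the cleavage furrow, stood at 10.2 ± 6.13 and 25.9 ± 4.89, and its groups did not overlap (limma adjusted p = 0.0889). Rtkn, which encodes the RhoA-binding protein rhotekin, stood at 345 ± 53.2 and 123 ± 97.9 (SD, n = 5 each; limma adjusted p = 0.0665). Its 3 lowest values were 44.4 in cKO 3, 54.5 in cKO 5 and 66.1 in cKO 1, and the highest cKO value, 267.5 in cKO 4, lay next to the lowest WT value, 268 in WT 1. Arhgap29, known from endothelial cells, stood at 148 ± 14.5 and 247 ± 78.9 (SD, n = 5 each; limma adjusted p = 0.0925). The authors' deposited adjusted p was 0.0461 for Plxnb1, 0.0127 for Cit, 0.00833 for Rtkn and 0.446 for Arhgap29.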
